A study of Mus musculus with 7 samples.

Results

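Adrenergic receptor genes were followed across 7 mouse tissues. The 8 genes Adra1a, Adra1b, Adra1d, Adra2a, Adra2b, Adra2c, Adrb1 and Adrb3 were taken by name from the 21340 protein-coding genes of the table. The shares given for them are shares of these 8 genes only, not of every adrenergic receptor. RNA-Seq of brown adipose tissue (BAT), visceral adipose tissue (VAT), subcutaneous adipose tissue (SCAT), muscle, liver, kidney and cortex was made from wild-type C57BL/6 mice (C57BL/6N in the study's text) aged 36 weeks on the diet labelled NCD, which the study describes as lean. Each tissue has 1 library and there are no replicates, so no difference between tissues was tested, the spread between animals is unknown, and each fold compares libraries. All 7 libraries share genotype, strain, diet and age. Values are FPKM, fragments scaled for transcript length and library size, so levels can be compared between genes within a library.

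Adrenergic receptors are G protein-coupled receptors for noradrenaline and adrenaline, the messengers of the sympathetic nervous system. Alpha-1 receptors act through Gq and phospholipase C beta, alpha-2 receptors act through Gi and lower cAMP, and beta receptors act through Gs and raise cAMP, which activates protein kinase A. In adipocytes the beta-3 receptor is known for starting lipolysis and, in brown adipocytes, heat production.

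RefSeq promoter sequence (GRCm38.p6) was found for 5 of the 8 genes. The 250 bases before the start of 3 genes are shown because each was highest in a different library: Adra1b in liver, Adra2b in kidney and Adrb1 in BAT. Capitals mark matches, on either strand, to the GC box GGGCGG or the CRE half-site TGACG, and no 2 capital runs overlap.
Adra1b, chr11:43901238-43901487, minus strand: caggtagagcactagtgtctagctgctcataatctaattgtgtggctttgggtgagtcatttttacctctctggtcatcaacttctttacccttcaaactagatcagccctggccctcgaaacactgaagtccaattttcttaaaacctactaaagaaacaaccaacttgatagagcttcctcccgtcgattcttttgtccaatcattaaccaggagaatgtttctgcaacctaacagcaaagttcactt
Adra2b, chr2:127362929-127363178, plus strand: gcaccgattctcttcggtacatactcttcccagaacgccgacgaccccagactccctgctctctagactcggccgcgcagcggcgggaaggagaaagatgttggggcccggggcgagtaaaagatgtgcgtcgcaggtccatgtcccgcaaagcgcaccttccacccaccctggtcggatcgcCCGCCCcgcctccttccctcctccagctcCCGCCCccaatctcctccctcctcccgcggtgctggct
Adrb1, chr19:56721867-56722116, plus strand: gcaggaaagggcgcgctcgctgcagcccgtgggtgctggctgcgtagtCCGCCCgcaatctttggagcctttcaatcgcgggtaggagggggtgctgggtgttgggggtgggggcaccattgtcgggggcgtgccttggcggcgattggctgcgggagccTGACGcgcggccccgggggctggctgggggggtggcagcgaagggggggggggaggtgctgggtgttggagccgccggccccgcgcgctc
The Adra1b stretch, which lies before the outer of 2 listed starts, had 41.6% GC and held neither motif, against a median of 52.4% GC over 32851 promoters. The stretch before the other Adra1b start, chr11:43836490-43836739, had 72.8% GC and 1 GC box. The Adra2b stretch had 66% GC and 2 GC boxes, and the Adrb1 stretch had 74% GC, 1 GC box and 1 CRE half-site. A GC box was found in 32.7% of all promoters of this length and a CRE half-site in 17.8%. The TATA box TATAAA, present in 12.4%, and the nuclear receptor half-site AGGTCA, present in 14.0%, were in none of these 3 stretches. Such matches describe the letters only. The lead of Adrb1 in BAT over cortex was small, as described below.

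Each gene's highest level lay in BAT, liver, kidney or cortex, and all 8 reached 1 FPKM in at least 1 library. A gene was counted as enriched where its highest tissue had at least 1 FPKM and lay at least 4-fold above every other tissue on the log2(FPKM + 0.1) scale. By this rule 5 of the 8 genes were enriched: Adra1a in BAT, Adra1b in liver, Adra2b in kidney, and Adra1d and Adra2c in cortex. The calls of Adra2b and Adra2c rest on loci read as lying on the opposite strand, and on the annotated strand their log2 leads were 0.62 and 1.09. Among the 14928 protein-coding genes that reached 1 FPKM, 21.4% were enriched in some tissue. The background differed between tissues: 0.757% of these genes were enriched in BAT, beside Adra1a, and 3.39% in liver, beside Adra1b. In kidney 2.49% were enriched, beside Adra2b, and in cortex 8.21%, beside Adra1d and Adra2c.

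**Figure D1:**
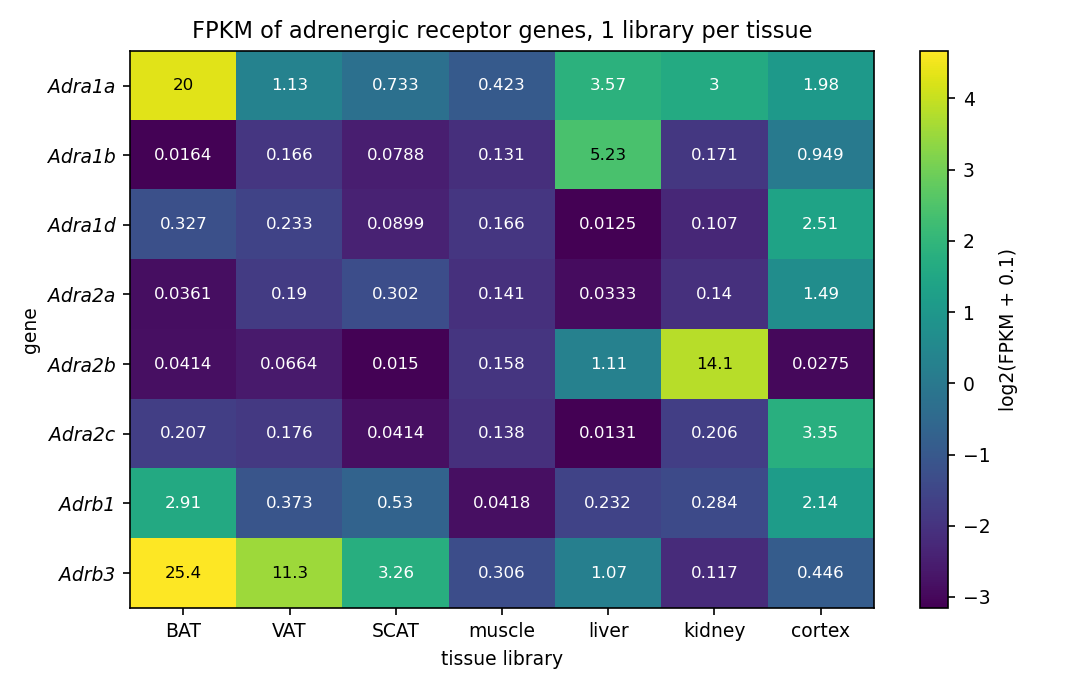
FPKM of each of the 8 genes (rows) in each of the 7 libraries (columns), with the number printed in each cell and the color giving log2(FPKM + 0.1). Adrb3 and Adra1a stand out in BAT, Adra2b in kidney and Adra1b in liver, while muscle holds no value above 0.423.

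Adra1a, which encodes the alpha-1A receptor, had 20.0 FPKM in BAT, 3.57 in liver, 3.0 in kidney, 1.98 in cortex, 1.13 in VAT, 0.733 in SCAT and 0.423 in muscle. BAT was 5.59-fold above liver in FPKM, a log2 difference of 2.45 with the 0.1 added, and it was the only library far from its neighbor in this order. From liver down to muscle each step was smaller than 2-fold, between 1.19-fold and 1.75-fold, so the order of those 6 libraries rests on small differences without replicates. In the BAT library 83.5% of the 14928 genes lay below Adra1a, and in the VAT library 27.7%.

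Adra1b, the alpha-1B receptor gene, followed another order. It had 5.23 FPKM in liver, 0.949 in cortex, 0.171 in kidney, 0.166 in VAT, 0.131 in muscle, 0.0788 in SCAT and 0.0164 in BAT. Liver was 5.51-fold above cortex, a log2 difference of 2.34, and cortex was in turn 5.56-fold above kidney. Kidney, VAT, muscle and SCAT followed each other by less than 2-fold. BAT, the library with the highest Adra1a, thus had the lowest Adra1b.

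Adra1d, the alpha-1D receptor gene, passed 1 FPKM only in cortex, at 2.51 FPKM. The other libraries had 0.327 in BAT, 0.233 in VAT, 0.166 in muscle, 0.107 in kidney, 0.0899 in SCAT and 0.0125 in liver. Cortex was 7.68-fold above BAT, a log2 difference of 2.61. The 3 alpha-1 genes therefore each had a different leading library. The bounds of the Adra1d locus also hold the noncoding gene Gm14285, which has its own entry with 2.25 FPKM in cortex and 1.38 in BAT. Its part in the Adra1d values was not tested.

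Of the alpha-2 genes, Adra2a and Adra2c were highest in cortex and Adra2b in kidney. Adra2a, the alpha-2A receptor gene, had 1.49 FPKM in cortex, 0.302 in SCAT, 0.190 in VAT, 0.141 in muscle, 0.140 in kidney, 0.0361 in BAT and 0.0333 in liver. Its log2 difference of 1.98 between cortex and SCAT fell just short of the 4-fold rule, although the FPKM ratio was 4.94. Adra2a was thus below 1 FPKM in all libraries but cortex, where 31.6% of the 14928 genes were lower.

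Adra2b, the alpha-2B receptor gene, had 14.1 FPKM in kidney and 1.11 in liver. All other libraries were far lower, with 0.158 in muscle, 0.0664 in VAT, 0.0414 in BAT, 0.0275 in cortex and 0.0150 in SCAT. Kidney was 12.7-fold above liver (log2 difference 3.55), and liver was 7.01-fold above muscle. This was the largest log2 difference between the highest and the next library among the 8 genes, although the plain FPKM ratio was larger for Adra2c. Adra2b was also the only alpha-2 gene that was lower in cortex than in kidney.

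Adra2c, the alpha-2C receptor gene, had 3.35 FPKM in cortex, 0.207 in BAT, 0.206 in kidney, 0.176 in VAT, 0.138 in muscle, 0.0414 in SCAT and 0.0131 in liver. Cortex was 16.2-fold above BAT, a log2 difference of 3.49. BAT, kidney, VAT and muscle followed each other by less than 2-fold. Adra2c and Adra1d had the most similar profiles of any pair among the 8 genes, with a Pearson r of 0.97 over 7 tissues on the log2 scale. Both profiles turn on 1 high library, cortex, and the value is a description.

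The beta receptor genes were highest in BAT. Adrb1, the beta-1 receptor gene, had 2.91 FPKM in BAT, 2.14 in cortex, 0.530 in SCAT, 0.373 in VAT, 0.284 in kidney, 0.232 in liver and 0.0418 in muscle. BAT exceeded cortex by only 1.36-fold (log2 difference 0.43), and the direction turned to -0.04 when the libraries were scaled by the median of ratios. The order of BAT and cortex for Adrb1 was therefore not settled. Cortex, in turn, was 4.03-fold above SCAT, for the locus used. On the annotated-strand locus of Adrb1 cortex had 0.101 FPKM and BAT 0.0220, level with VAT, a log2 difference of -0.72 for BAT over cortex.

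Adrb3, the beta-3 receptor gene, had the highest FPKM of any of the 8 genes in any library, 25.4 in BAT. It had 11.3 FPKM in VAT, 3.26 in SCAT, 1.07 in liver, 0.446 in cortex, 0.306 in muscle and 0.117 in kidney. The 3 fat libraries lay above the 4 other libraries, with SCAT, the lowest fat library, above liver, the highest other library, by a log2 difference of 1.52. This was true of 1 of the 8 genes, Adrb3, and of 3.31% of the 14928 protein-coding genes. BAT was 2.24-fold above VAT in FPKM and VAT 3.48-fold above SCAT. Liver held 1.07 FPKM of Adrb3, 2.41-fold more than cortex. In liver the adipocyte markers Adipoq, Lep and Plin1 summed to 0.178 FPKM. Eif4ebp1, which lies within the bounds of the Adrb3 locus, had 9.80 FPKM there. The source of the liver value was not tested.

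Within each library, the receptor genes were compared by their share of the summed FPKM of all 8. The sum was 48.9 FPKM in BAT, 18.1 in kidney, 13.7 in VAT, 12.9 in cortex, 11.3 in liver, 5.05 in SCAT and 1.51 in muscle. Adrb3 led in all 3 fat libraries, with 51.9% in BAT, 82.9% in VAT and 64.5% in SCAT. In BAT the remainder was mostly Adra1a, at 40.8%, whereas Adra1a gave 8.28% in VAT and 14.5% in SCAT. With loci on the annotated strand alone, described below, the BAT share was 16.3% for Adra1a and 82.5% for Adrb3.

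Outside fat, a different gene led in each library. In kidney Adra2b gave 77.7% and Adra1a 16.6%. In liver Adra1b gave 46.4% and Adra1a 31.7%, so that the alpha-1 genes together made up 78.2%. Of the libraries with a sum above 10 FPKM, cortex had the lowest leading share: Adra2c gave 26.0%, Adra1d 19.5%, Adrb1 16.6%, Adra1a 15.4% and Adra2a 11.6%. In muscle Adra1a led with 28.1%, but every gene there lay at or below 0.423 FPKM and the shares rest on low values. These leads depend on the strand of the loci: with annotated-strand loci alone Adra1a led in kidney with 62.1%, where Adra2b fell to 6.92%, Adra1d led in cortex with 65.3%, and Adrb3 led in muscle with 45.9%, while Adra1b still led in liver with 60.7%.

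**Figure D2:**
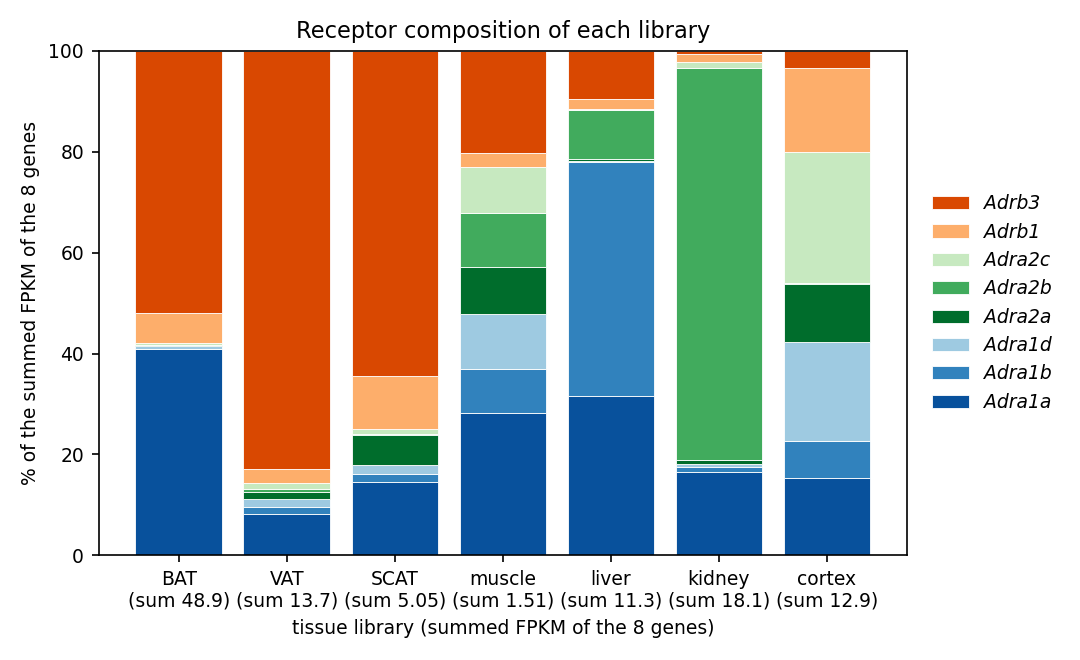
Stacked bars give each gene's percent of the summed FPKM of the 8 genes in each library, with the sum under the library's name, alpha-1 genes in blue, alpha-2 genes in green and beta genes in orange. Beta genes make up 57.9% in BAT, 85.6% in VAT and 75.0% in SCAT, against 2.22% in kidney, which becomes 13.5% with annotated-strand loci alone.

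By class, beta genes made up 57.9% of the sum in BAT, 85.6% in VAT, 75.0% in SCAT, 23.1% in muscle, 20.0% in cortex, 11.6% in liver and 2.22% in kidney. With annotated-strand loci alone the beta share was 82.6% in BAT, 95.1% in VAT, 91.3% in SCAT, 45.9% in muscle, 24.4% in liver, 14.2% in cortex and 13.5% in kidney. Alpha-2 genes made up 79.7% in kidney and 37.8% in cortex, but 0.582% in BAT. With annotated-strand loci alone the alpha-2 share was 9.37% in kidney and 9.62% in cortex. Beta and alpha-1 genes thus accounted for nearly all receptor transcript of these 8 genes in BAT.

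The fat depots were then compared with one another. Pairs in which at least 1 depot reached 1 FPKM were considered. BAT was at least 4-fold above VAT for 2 of the 3 receptor genes considered, Adra1a (log2 difference 4.02) and Adrb1 (2.67), against 9.84% of protein-coding genes. The Adrb1 difference rests on the opposite-strand locus: the annotated-strand locus of Adrb1 had 0.0220 FPKM in BAT, 0.0220 in VAT and 0.0113 in SCAT. For Adrb3 the log2 difference was 1.15, and it fell to 0.44 under median-of-ratios scaling and to 0.46 under upper-quartile scaling. BAT was at least 4-fold above SCAT for 3 of 3 genes, Adra1a (4.59), Adrb3 (2.92) and Adrb1 (2.26), against 15.6% of protein-coding genes. Adra1a and Adrb1 were considered against SCAT only because BAT reached 1 FPKM, with 0.733 and 0.530 FPKM in SCAT. Adrb1 was considered against VAT, at 0.373 FPKM, for the same reason. Such genes could be counted for BAT only, so these counts do not measure a lean of the receptor genes toward BAT. Between the white depots, Adrb3 was higher in VAT than in SCAT by a log2 difference of 1.77.

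The depots differ in their content of adipocytes and other cells, and in bulk tissue fewer cells of a type and less RNA per cell cannot be told apart. Adrb3 was therefore set against transcripts of adipocytes. Relative to Adipoq, the gene of the adipocyte hormone adiponectin, Adrb3 FPKM was 9.84% in BAT, 3.43% in VAT and 2.97% in SCAT. Relative to Plin1, the lipid droplet coat protein gene, it was 6.14% in BAT, 11.1% in VAT and 4.35% in SCAT. The order of BAT and VAT for Adrb3 thus depended on the reference gene. For Adra1a, BAT stayed highest with either reference, at 7.74% of Adipoq against 0.343% in VAT and 0.669% in SCAT, and at 4.83% of Plin1 against 1.11% and 0.980%. Adrb1 was 1.13% of Adipoq in BAT, 0.113% in VAT and 0.483% in SCAT, while relative to Plin1 it was 0.705% in BAT, 0.364% in VAT and 0.708% in SCAT.

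Markers of the labelled tissues were highest where the labels place them. Adipocyte markers summed to 673 FPKM in BAT, 484 in VAT and 211 in SCAT, against at most 25.2 elsewhere. Of the brown adipocyte markers, Ucp1 reached 6552 FPKM in BAT and Elovl3 165, but Dio2 only 0.387. Liver markers summed to 7128 FPKM in liver without Alb, whose value there is missing, kidney markers to 1574 in kidney, cortex markers to 334 in cortex, pan-neuronal markers to 298 in cortex, and the muscle marker Ckm had 8592 in muscle, where the value of Myh4 is missing.

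Several libraries also held markers of other cells. VAT held epididymis markers (3 of 3 enriched, sum 2639 FPKM, against at most 1.99 elsewhere) and stratified epithelium markers (2 of 2 enriched, sum 5.06). Liver markers summed to 566 FPKM in VAT, but also to 337 in kidney and 75.4 in SCAT. Of these, Cyp2e1 had 295 FPKM in VAT, 331 in kidney and 68.2 in SCAT, so it did not set VAT apart from kidney. Outside liver, Alb (253 FPKM) and Apoa1 (17.7 FPKM) were highest in VAT. SCAT held lymphocyte markers (3 of 3 enriched, sum 89.5 FPKM, against at most 2.80 elsewhere) and pancreatic acinar markers (2 of 3 enriched, sum 77.3). BAT held 254 FPKM of the 2 skeletal muscle markers in the table, and endothelium markers were between 5.30 FPKM in cortex and 71.3 in BAT. Vascular smooth muscle markers summed to 174 FPKM in VAT, 64.4 in muscle, 57.0 in SCAT, 36.4 in BAT, 32.0 in kidney, 11.9 in liver and 9.93 in cortex. The part of these cells in the fat values of Adrb3, Adra1a, Adrb1 and Adra2a was not tested. Without the SCAT library Adra2a joined the enriched genes, and without the VAT library Adrb3 did, making 6 of 8 each time.

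Most receptor genes were listed with more than 1 locus: Adra1b had 3 on one strand and 1 on the other, and the others with several had 1 on each. The table has no strand column, and strand was read from the order of its loci. Adra1a, Adra1b, Adra2a, Adra2b, Adra2c and Adrb1 had loci on both strands, and in all 6 the higher locus, the source of the values above, ran against the annotated direction of the gene (the opposite strand). Of 7750 protein-coding genes with loci on both strands, 39.2% had their highest locus on the opposite strand. Adra1d and Adrb3 had 1 locus each, on the annotated strand. Whether the opposite-strand fragments come from the receptor transcripts or from antisense RNA was not tested.

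**Figure D3:**
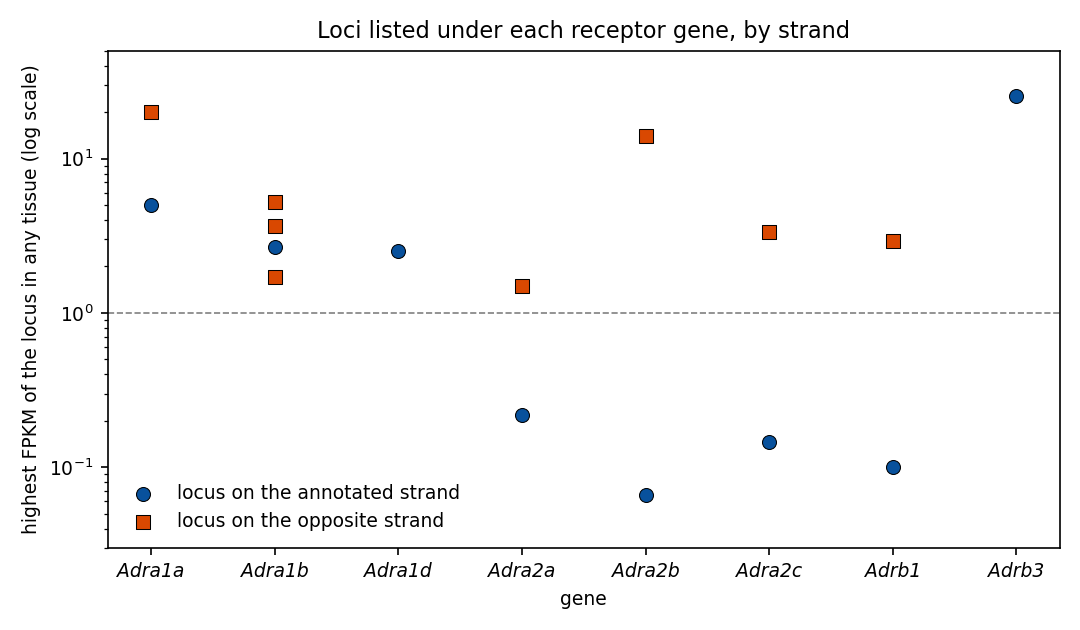
Highest FPKM in any library (log scale) of each locus listed under each of the 8 genes, with circles for loci on the annotated strand, squares for loci on the opposite strand and a dashed line at 1 FPKM. In the 6 genes with both kinds, the highest square lies above the circle, while Adra1d and Adrb3 have a circle alone.

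The opposite strand carried 81.5% of the FPKM summed over loci and tissues for Adra1a, 80.9% for Adra1b, 89.3% for Adra2a, 95.6% for Adra2c, 97.5% for Adrb1 and 99.4% for Adra2b. On the annotated strand, Adra1a had 5.01 FPKM in BAT, 0.634 in liver and 0.130 in muscle, and Adra1b had 2.67 in liver. Both genes thus kept their leading library at 1 FPKM or more on either strand. The annotated-strand loci of the other genes stayed below 1 FPKM in every library: Adra2a reached 0.219 in cortex, Adra2c 0.146 in cortex, Adrb1 0.101 in cortex and Adra2b 0.0664 in kidney. The leading library was the same on either strand for Adra1a, Adra1b, Adra2a, Adra2b and Adra2c, but for Adrb1 it was BAT on the opposite strand and cortex on the annotated strand. Pearson r between the locus used and the annotated-strand locus over the 7 tissues was 0.96 for Adra1a, 0.96 for Adra1b, 0.91 for Adra2a, 0.87 for Adra2b, 0.97 for Adra2c and 0.71 for Adrb1, as a description of points that share libraries.

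With annotated-strand loci alone, 3 receptor genes were enriched: Adra1a in BAT, Adra1b in liver and Adra1d in cortex. The leading gene by share remained Adrb3 in the fat libraries and Adra1b in liver.

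In GRCm38 (GENCODE), Adra1a lies at chr14:66635251-66771168 on the plus strand, Adra1b at chr11:43774606-43901210 on the minus strand and Adra1d at chr2:131545850-131562283 on the minus strand. Adra2a lies at chr19:54044151-54048982, Adra2b at chr2:127363208-127367221 and Adra2c at chr5:35278319-35281763, all on the plus strand. Adrb1 lies at chr19:56722199-56733113 on the plus strand and Adrb3 at chr8:27225776-27250616 on the minus strand. Adra2b and Adra2c are annotated with 1 exon. The Adrb3 locus of the table spans chr8:27197459-27276674 and its bounds also hold Eif4ebp1 and Got1l1, which have entries of their own. Eif4ebp1, a regulator of translation initiation, had 78.6 FPKM in BAT, 28.8 in VAT, 12.4 in SCAT, 26.4 in muscle, 9.80 in liver, 2.48 in kidney and 0.442 in cortex. Its order differed from that of Adrb3 in muscle, which was above SCAT for Eif4ebp1 and below it for Adrb3, and its part in the Adrb3 values was not tested.

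Genes of the receptors' pathway were read from 9 lists. Of the 58 genes, 55 reached 1 FPKM and 13 were enriched by the same rule, 4 of them in BAT, 5 in cortex, 2 in muscle and 1 each in kidney and SCAT. Under median-of-ratios scaling 10 were enriched, without Plin1 and Prkar2b in BAT and Th in muscle. The 13 are 23.6% of the 55, near the 21.4% of all 14928 genes. In single tissues the share over all genes was 0.757% for BAT, 8.21% for cortex, 3.38% for muscle, 2.49% for kidney and 1.93% for SCAT. The median log2 difference of BAT over the mean of the other tissues was 0.24 over these 55 genes and 0.12 over all protein-coding genes that reached 1 FPKM.

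Several genes that act after the beta receptors were highest in BAT. Gnas, which encodes Gs alpha, had 679 FPKM in BAT, 133 in VAT and 83.9 in SCAT, with 425 in muscle, and was not enriched. Adcy3, an adenylyl cyclase gene, was enriched in BAT with 73.2 FPKM, against 2.24 in VAT, 3.43 in SCAT and 4.29 in cortex. Another cyclase gene, Adcy5, had the opposite order in fat, with 0.697 FPKM in BAT, 8.13 in VAT and 6.05 in SCAT. Which cyclase gene was highest thus differed between BAT, where it was Adcy3, and VAT, where it was Adcy5.

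Prkar2b, a regulatory subunit gene of protein kinase A, was enriched in BAT, with 373 FPKM there, 60.2 in VAT, 41.3 in SCAT and 6.87 in cortex. Its log2 lead over VAT was 2.63, and it fell below the 4-fold rule under median-of-ratios scaling. The catalytic subunit gene Prkaca had 80.9 FPKM in BAT and 51.3 in muscle. Pde3b, the phosphodiesterase gene known for its role in insulin's action against lipolysis, had 134 FPKM in BAT, 41 in VAT, 34.2 in SCAT and 26.7 in liver. All 3 genes were higher in BAT than in any other library, but Prkaca and Pde3b did not reach 4-fold.

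Among the targets, Ucp1, which uncouples respiration in brown fat mitochondria, had 6552 FPKM in BAT, 10.6 in kidney and 2.86 in muscle, and its used locus lies on the opposite strand with Tbc1d9 in its bounds. Plin1 was enriched in BAT with 413 FPKM, against 102 in VAT and 74.8 in SCAT. Its log2 lead over VAT was 2.01, just past the rule, and it fell below the rule under median-of-ratios scaling. The lipase genes Pnpla2 (272 FPKM in BAT, 104 in VAT, 68.4 in SCAT) and Lipe (249, 84.3 and 56.6) had the same order of depots as Adrb3 without reaching 4-fold. The sixth gene of the list, Ppargc1a, had 6.20 FPKM in BAT, 7.37 in kidney and 6.28 in muscle.

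**Figure D4:**
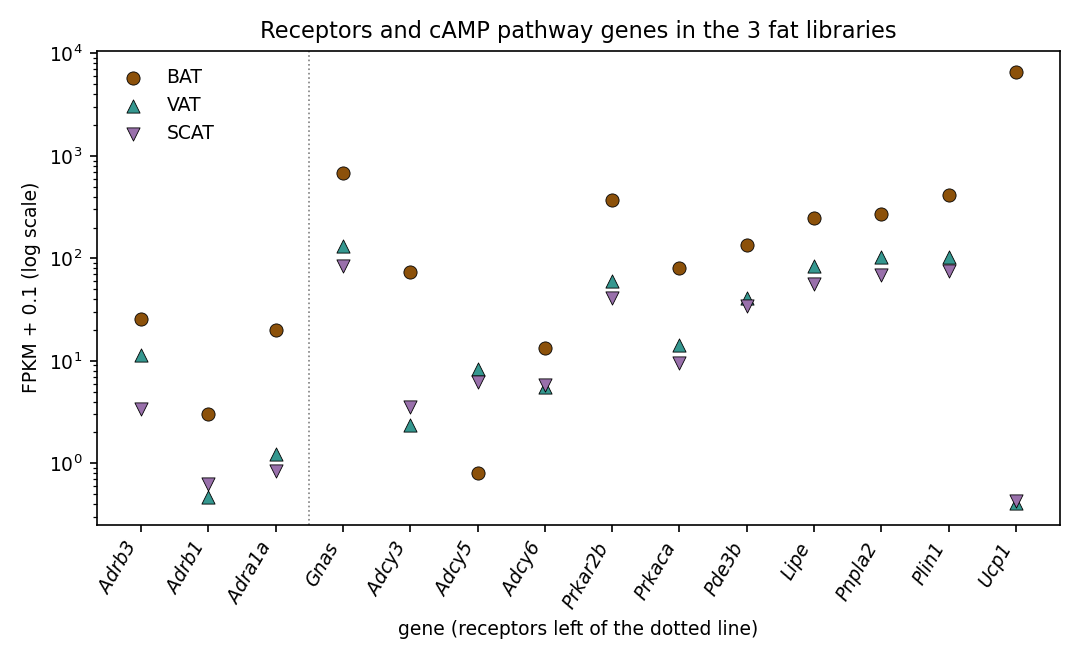
FPKM + 0.1 on a log axis of 3 receptor genes and 11 cAMP pathway genes, picked for display with their values known, in BAT (circles), VAT (upward triangles) and SCAT (downward triangles). BAT is the highest of the 3 for every gene drawn except Adcy5, at 0.697 FPKM in BAT against 8.13 in VAT.

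In cortex, where 5 of the 8 receptor genes passed 1 FPKM, the enriched pathway genes were Adcy1 with 36.5 FPKM, Prkacb with 110 and Prkar1b with 86.1, the Gi family gene Gnaz with 1.98, and Plcb1, a phospholipase C beta gene, with 43.3. The loci used for Adcy1 and Plcb1 also lie on the opposite strand. The phospholipase gene Plcb2 was enriched in SCAT at 3.80 FPKM. That library also held the high lymphocyte and pancreatic acinar markers, and the part of those cells in the Plcb2 value was not tested. In kidney, the phosphodiesterase gene Pde4c was enriched with 12.0 FPKM. Plcb3 was the highest phospholipase C beta gene in liver at 15.6 FPKM, and in BAT at 19.5 and kidney at 10.5. Its locus is shared with Fkbp2 and its bounds also hold Ppp1r14b, so these values may not be those of Plcb3 alone. None of the 58 genes was enriched in liver, where the share over all genes was 3.39%. No receptor kinase or arrestin gene was enriched, and Grk2 was the highest of that list in every library, between 10.4 and 34.1 FPKM.

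Genes for making and clearing the ligand were mostly low or broad. Of the synthesis genes, Th was enriched in muscle at 1.5 FPKM and Dbh stayed at or below 0.0368 in every library. The Th call was lost under median-of-ratios scaling. Ddc had 27.2 FPKM in kidney and 16.4 in liver and was not enriched. Pnmt was listed with 490 FPKM in muscle, but its locus lies on the strand opposite to Pnmt and its bounds hold Tcap, a sarcomere gene, so this value is uncertain. The noradrenaline transporter gene Slc6a2 stayed at or below 0.0353 FPKM. No gene of the list for catecholamine transport and breakdown was enriched.

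The 3 genes with the most similar profile to each receptor gene were taken from 14898 genes with a value in all 7 tissues, by Pearson r of log2(FPKM + 0.1). The values of r rest on 7 points and are given as a description. For Adrb3 these were Plce1 (r = 0.996), Pparg (0.97), the master regulator of adipocyte formation, and Proca1 (0.97). Pparg had 158 FPKM in BAT, 49.8 in VAT, 41.4 in SCAT and 9.69 in liver, the same first 4 libraries as Adrb3.

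For Adra1a they included Triap1 and Scfd1 (r = 0.98 each), with Triap1 at 207 FPKM in BAT and 46.8 in liver. The bounds of the Triap1 locus also hold Coq5, Dynll1, Srsf9, Gatc and Cox6a1, whose part in its values was not tested. For Adra1b they were H3f3b (0.99), Il1rap (0.98) and Daam1 (0.98). Likeness concerns shape and not size: Il1rap had 79.8 FPKM in liver against 0.717 in BAT, while H3f3b ranged only from 9.62 to 15.3. For Adrb1 they were Ankrd50 (0.99), Ddhd1 (0.98) and Ranbp1 (0.97).

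For Adra2b they were Slc17a1 (0.99), a phosphate transporter gene with 270 FPKM in kidney and 7.06 in liver, and Ces2b and Ces2c (0.99), which share 1 locus with 94.5 FPKM in kidney. For the cortex-high genes they were Trpc6 (0.995), Nckipsd (0.99) and Prickle3 (0.99) for Adra1d, Rftn2, Tspyl4 and Leng9 (0.99 each) for Adra2a, and Aplp1, Gucy1a2 and Nipa1 (0.99 each) for Adra2c. The Prickle3 locus is shared with Syp, a synaptic vesicle gene, and the bounds of the Leng9 locus also hold Ttyh1 and Leng8. None of these genes came from the pathway lists.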

How the data were processed

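Total RNA of 7 tissues, 1 library each, was depleted of rRNA and sequenced from directional libraries. Per the study's methods and the submitters' processing notes, the authors removed adapters with flexbar and rRNA reads with Bowtie2 2.2.9, aligned with STAR 2.6.0c to GRCm38, assembled with Cufflinks 2.2.1 and compared tissues with cuffdiff. The cuffdiff library type and scaling are not given in the sources used here. The authors deposited FPKM per locus for 94339 loci in 21 comparisons of tissues, and each tissue's FPKM was the same in all of them. The authors' log2 fold changes, test statistics, p-values and q-values in the same table were not used. Depth is unknown, since the table holds no counts and the ratios of the lowest FPKMs between libraries had more than 1 peak, so no interval was computed. The precision of low FPKMs is therefore also unknown.

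The names of each locus were split on commas, and the locus with the highest FPKM was taken for each gene. The 151 loci with status FAIL were dropped, and the 225 zeros with status LOWDATA were taken as missing. Biotypes and positions came from GENCODE on GRCm38. Within a chromosome the loci run upward in position, start again and run upward a second time, and these runs were read as the plus and the minus strand. Folds are on log2(FPKM + 0.1), which understates differences of low genes, unless called FPKM ratios. Enrichment required 1 FPKM and a 4-fold lead over every other tissue, and neighbors under 2-fold apart are called close. The code for this rule was tested on simulated data, which says nothing about noise near the threshold.

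The receptor genes, 9 pathway lists and marker lists were chosen with earlier results of these data known. Genes named are the receptors, the 3 most similar genes of each (1 is not reported here), the enriched pathway genes, the highest in BAT, liver and cortex where informative, and some others picked with their values seen (Adcy5, Prkaca, Pnpla2, Lipe, Ppargc1a, Dbh, Slc6a2). Alternatives covered the pseudocount, minimum FPKM, fold, scaling, choice of locus, LOWDATA zeros and the VAT and SCAT libraries. Python, pandas 2.3.3 and matplotlib 3.10.9 were used.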

Additional observations from a re-analysis of the deposited data

Results flagged for a closer look

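Loci of the receptor genes that were not used for the values above held signal above 1 FPKM in 2 genes, and no control library exists to set them against. The annotated-strand locus of Adra1a had 5.01 FPKM in BAT. Adra1b had 3 further loci with signal in liver, at 3.64 and 1.70 FPKM on the opposite strand and 2.67 FPKM on the annotated strand. Each had its highest value in the same library as the locus used.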

How the results depend on the processing

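The number of enriched receptor genes, 5, stayed within 1.5 times under 9 of 13 alternatives, and it was 2 with a pseudocount of 1 (Adra1a and Adra2b), 3 with a minimum of 5 FPKM, 2 with an 8-fold lead (Adra2b and Adra2c) and 3 with annotated-strand loci only. The number of enriched pathway genes rose from 13 to 25 with a 2-fold lead. It fell to 10 with median-of-ratios scaling, with a pseudocount of 1 and with a minimum of 5 FPKM. The lead of Adrb1 in BAT over the highest other tissue turned to -0.043 under median-of-ratios scaling and to -0.72 with annotated-strand loci. For Adrb3, BAT over VAT was 0.44 under median-of-ratios and 0.46 under upper-quartile scaling, and BAT over SCAT was 2.13 and 2.10. The median-of-ratios scaling changed values by -0.29 in BAT, 0.42 in VAT, 0.52 in SCAT, -0.39 in muscle and 0.20 in cortex on the log2 scale. With annotated-strand loci only, the share of Adrb3 in BAT was 82.5%, that of Adra2b in kidney 6.92% and that of Adra2c in cortex 3.80%. Of 48 log2 ratios of single receptor genes under alternatives, 35 moved by less than 1.5-fold. The cause of these moves was not tested, beyond what each alternative changes by construction. No paired analysis was possible because each tissue has 1 library. Levels below about 1 FPKM, which include most values outside a gene's leading tissue, have unknown precision.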
